A study of Mus musculus with 12 samples.

Results

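The clustered histone genes are the protein-coding genes for the replication-dependent histones of the mouse, and they were described here by the ATAC-seq peaks at them in aortic endothelial cells (MAECs). They were found in RefSeq's table of GRCm38.p6 as the genes with a symbol or listed synonym of the form Hist1h, Hist2h, Hist3h or Hist4h, and a peak counted as theirs when any part of it lay within 1 kb of the gene's span. There were 67 such genes, of 21631 that encode proteins on chromosomes 1 to 19 and X. All 67 were matched through the older name, and H4bc24 is the table's symbol for Hist1h2br, an H2B gene. ATAC-seq cuts and tags accessible DNA with a transposase, so that reads pile up where chromatin is open.

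The series held 12 samples, 8 of ATAC-seq and 4 of the histone mark H3K27ac, which were not analysed here. For ATAC-seq there were 4 groups of 2 samples, named by diet as CD or WD. M was taken to stand for mothers and O for offspring. Both CDM-CDO and WDM-CDO offspring had CD, from mothers on CD and WD respectively. The offspring of CDM-WDO and WDM-WDO were given WD for 4 weeks, and came from mothers on CD and WD respectively. Strain, genotype, sex, age and the number of animals per sample are not given in the sources used here. Each group had 1 deposited peak list and no file separates its samples, so there are no replicates and no tests between groups, and the counting intervals below do not cover the spread between animals. The peak names carry the mark 08w in both CDO lists and 12w in both WDO lists so the diet of the offspring and that mark cannot be told apart. The 4 comparisons share lists with each other, and their values are given side by side.

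Nucleosomes are built from an octamer of the core histones H2A, H2B, H3 and H4, and linker histone H1 binds where DNA enters and leaves. The genes described here supply these proteins while DNA is copied in S phase. They lack introns for the most part, their mRNAs end in a stem-loop in place of a poly(A) tail, and their transcription gathers in a nuclear body organised by NPAT. Most lie in clusters, where genes for H2A and H2B often face each other across a shared promoter. Endothelial cells of a healthy adult artery divide seldom, and they divide more where the lining is renewed.

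Of the 67 genes, 54 belonged to the Hist1 cluster on chromosome 13 (6 H1, 13 H2A, 15 H2B, 9 H3 and 11 H4 genes). These lay in an interval of 23 genes at chr13:21715711-22043658 and one of 31 genes at chr13:23531044-23934913. The Hist2 cluster on chromosome 3 (chr3:96219885-96270192) held 10 genes, Hist3 on chromosome 11 held H2aw and H2bu2, and Hist4 on chromosome 6 was the single H4 gene H4f16. The genes were short, with a median span of 492 bp against 17329 bp for all genes, and 61 of the 67 spanned at most 1 kb.

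Promoter sequences are shown first, since many of the peaks described below lie at or near them and some promoter windows have copies elsewhere. RefSeq's windows of GRCm38.p6, 250 bases before to 50 after the start site, were given for 62 of the 67 genes, in 63 windows. The 250 bases before the start site follow, 5′ to 3′ on the gene's strand, for H1f2 (a linker histone gene, with the highest histone summit in every list but CDM-WDO), H2bc15 (an H2B gene facing H2ac15), H4c1 (an H4 gene of a region shared with H3c1 and H1f1), H4c12 and H4c2 (H4 genes with a peak only in the CDO lists), H2bc23 (an H2B gene without a peak, with a copied window) and H2bc1 (an H2B gene of the testis, without a peak). Capitals mark 4 motifs on either strand. CCAAT, read on the other strand as ATTGG, is bound by the factor NF-Y. TATAAA, on the other strand TTTATA, is the sequence of a TATA box, and was marked at any distance from the start site. ATTTGCAT, which reads ATGCAAAT when reversed, is the octamer bound by OCT1. AAACACA, reversed to TGTGTTT, is an element of H1 promoters. Matches of different motifs overlapped in 0 of the 63 histone windows, and a match is a description and not a bound site.
H1f2, chr13:23738557-23738806, plus strand: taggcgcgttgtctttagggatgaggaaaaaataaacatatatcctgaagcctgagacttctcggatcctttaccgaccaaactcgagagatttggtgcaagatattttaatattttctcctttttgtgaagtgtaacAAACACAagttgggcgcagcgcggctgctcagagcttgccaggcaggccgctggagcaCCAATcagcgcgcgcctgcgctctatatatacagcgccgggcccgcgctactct
H2bc15, chr13:21753826-21754075, plus strand: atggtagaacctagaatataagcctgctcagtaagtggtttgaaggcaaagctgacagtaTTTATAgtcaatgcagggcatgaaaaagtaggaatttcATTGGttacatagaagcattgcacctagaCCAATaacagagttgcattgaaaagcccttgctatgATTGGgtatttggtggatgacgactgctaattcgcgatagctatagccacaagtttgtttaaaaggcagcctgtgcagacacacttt
H4c1, chr13:23761250-23761499, minus strand: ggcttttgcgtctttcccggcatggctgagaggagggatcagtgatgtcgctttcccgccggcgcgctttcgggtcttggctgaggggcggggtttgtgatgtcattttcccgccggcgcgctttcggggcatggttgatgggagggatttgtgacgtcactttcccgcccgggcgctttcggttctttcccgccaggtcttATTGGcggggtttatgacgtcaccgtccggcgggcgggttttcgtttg
H4c12, chr13:21750554-21750803, minus strand: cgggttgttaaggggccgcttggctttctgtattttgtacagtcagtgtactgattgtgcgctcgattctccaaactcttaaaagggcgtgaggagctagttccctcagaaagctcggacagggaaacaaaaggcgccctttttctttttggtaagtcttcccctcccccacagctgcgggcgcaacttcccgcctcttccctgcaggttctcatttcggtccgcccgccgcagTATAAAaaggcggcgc
H4c2, chr13:23756687-23756936, plus strand: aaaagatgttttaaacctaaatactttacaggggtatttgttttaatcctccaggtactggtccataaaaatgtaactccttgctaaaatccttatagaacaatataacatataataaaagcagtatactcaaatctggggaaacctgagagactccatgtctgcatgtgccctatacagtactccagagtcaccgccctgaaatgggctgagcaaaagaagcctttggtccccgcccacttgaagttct
H2bc23, chr13:21810200-21810449, minus strand: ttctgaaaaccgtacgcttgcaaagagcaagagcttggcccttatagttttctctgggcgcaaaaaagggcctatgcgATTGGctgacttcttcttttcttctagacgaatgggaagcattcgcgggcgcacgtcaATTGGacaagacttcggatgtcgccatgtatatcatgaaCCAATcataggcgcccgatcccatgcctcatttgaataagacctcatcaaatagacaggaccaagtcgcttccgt
H2bc1, chr13:23934157-23934406, minus strand: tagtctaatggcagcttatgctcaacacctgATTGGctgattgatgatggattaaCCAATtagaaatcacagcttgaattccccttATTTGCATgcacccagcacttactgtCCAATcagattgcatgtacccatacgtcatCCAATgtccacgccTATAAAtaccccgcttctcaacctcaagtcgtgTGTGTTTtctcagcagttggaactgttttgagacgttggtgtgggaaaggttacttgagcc

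The printed windows differ in kind by family. CCAAT stood in 54 of the 63 histone windows (85.7%), against 37.6% of all 32619 RefSeq windows of the same length. It was in every H1, H2A, H2B and H3 window given, but in 3 of 12 H4 windows. At least 2 matches were found in all 18 H2A and all 17 H2B windows. TATAAA stood in 55.6% of histone windows and 13.7% of all windows. The octamer ATTTGCAT was in 22.2% against 1.75%, and its 14 matches were in 7 of 18 H2A and 7 of 17 H2B windows. AAACACA was in 5 of 6 H1 windows and in 14.3% of histone windows, against 7.22% of all. In 10 places, 2 start sites faced away from each other 164 to 281 bp apart (median 204.5 bp), and all 10 were H2A and H2B pairs, whose windows overlap and share matches.

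Copies were found by 50-base words. The whole 300-base window of H2bc23 is the same as that of H4bc24, without 1 difference. Of the words of other windows, 94% were shared between H4c17 and H4c18, 74.1% between H3c14 and H3c15, and 67.7% between H2ac18 and H2ac19. Words were shared with another gene in 4 of the 7 genes without a peak in any list, in 3 of 46 with a peak in all 4 lists, and in 5 of the other 9 with a window. The treatment of reads with more than 1 place was not stated in the sources used here, so an absent peak at a copied gene is not shown to be closed chromatin.

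Most clustered histone genes were open in every group. In CDM-CDO 58 of 67 had a peak within 1 kb (86.6%, 95% Wilson interval 76.4 to 92.8%), and WDM-CDO had 60 (89.6%, 80.0 to 94.8%). There were 51 in CDM-WDO (76.1%, 64.7 to 84.7%), against 55 in WDM-WDO (82.1%, 71.3 to 89.4%). Over all protein-coding genes the shares were 57.2, 61.2, 49.9 and 58.2% in that order, which is kept from here on wherever 4 values are given. Over the 15294 genes no longer than the longest histone gene, the planned background for length, they were 49.9, 53.7, 42.3 and 51.5%. Other genes with a span of at most 1 kb, 1380 in number, had a peak at 2.75, 3.7, 3.04 and 3.19%. That background was added after seeing the data and was matched by length only. The 61 histone genes of at most 1 kb had a peak at 54, 56, 47 and 51. In all, 51 histone genes had a peak in each of the 4 lists (76.1%), against 44.6% of all genes. Since 19 of the 40 regions with a peak served 2 or 3 histone genes, these counts are not over independent genes. In bulk samples, fewer cells of a type and less open chromatin per cell cannot be told apart.

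**Figure D1:**
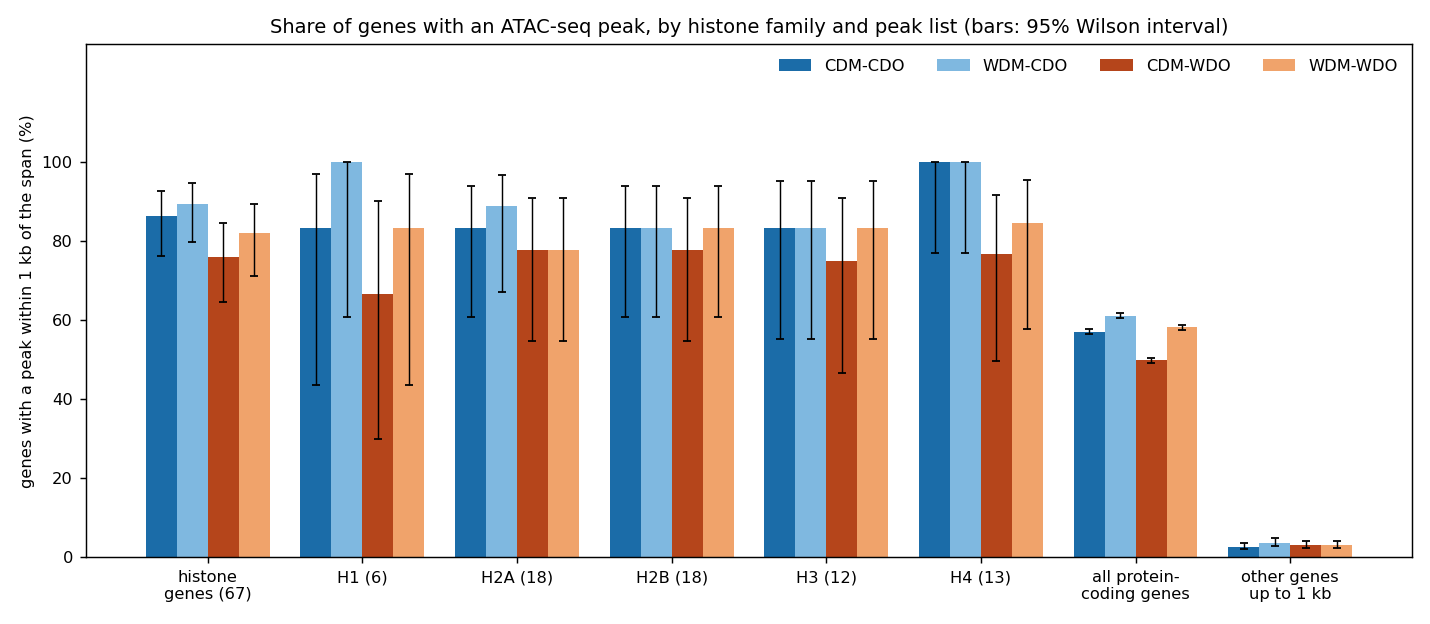
The height of each bar is the percentage of genes with an ATAC-seq peak within 1 kb of the span, for all 67 clustered histone genes, for each histone family (number of genes in brackets), for all protein-coding genes and for the other genes up to 1 kb long, in the 4 peak lists. Error bars are 95% Wilson intervals for counting error only. The histone bars of 76.1 to 89.6% stand above those of all genes, and CDM-WDO has the lowest histone bar.

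By family, H4 genes had a peak at 13, 13, 10 and 11 of 13, and H1 genes at 5, 6, 4 and 5 of 6. H2A genes had one at 15, 16, 14 and 14 of 18 and H2B genes at 15, 15, 14 and 15 of 18. H3 genes had one at 10, 10, 9 and 10 of 12. By cluster, Hist1 counted 47, 49, 42 and 44 of 54, Hist2 8, 8, 7 and 8 of 10, Hist3 2, 2, 1 and 2 of 2, and Hist4 1 of 1 in each list. The intervals of all these shares overlapped between lists.

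Peaks inside the clusters sat mainly at the histone genes. In the first Hist1 interval, 18.3% of the length lies within 1 kb of a histone gene, and 66.7, 59.1, 73.3 and 54.5% of its peaks did. In the second, 26.3% of the length and 86.4, 86.4, 85 and 75% of the peaks were within 1 kb. In Hist2 it was 5 of 5, 5 of 6, 4 of 5 and 5 of 6 peaks. The strongest summit lay at a median of 19, 22, -36.5 and -25.5 bp from the start site, negative values being upstream, for the 53, 55, 46 and 50 genes with a window and a peak. It was within 500 bp for 38, 37, 32 and 35 of them. For genes that share a region the summit can be that of the neighbour.

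**Figure D2:**
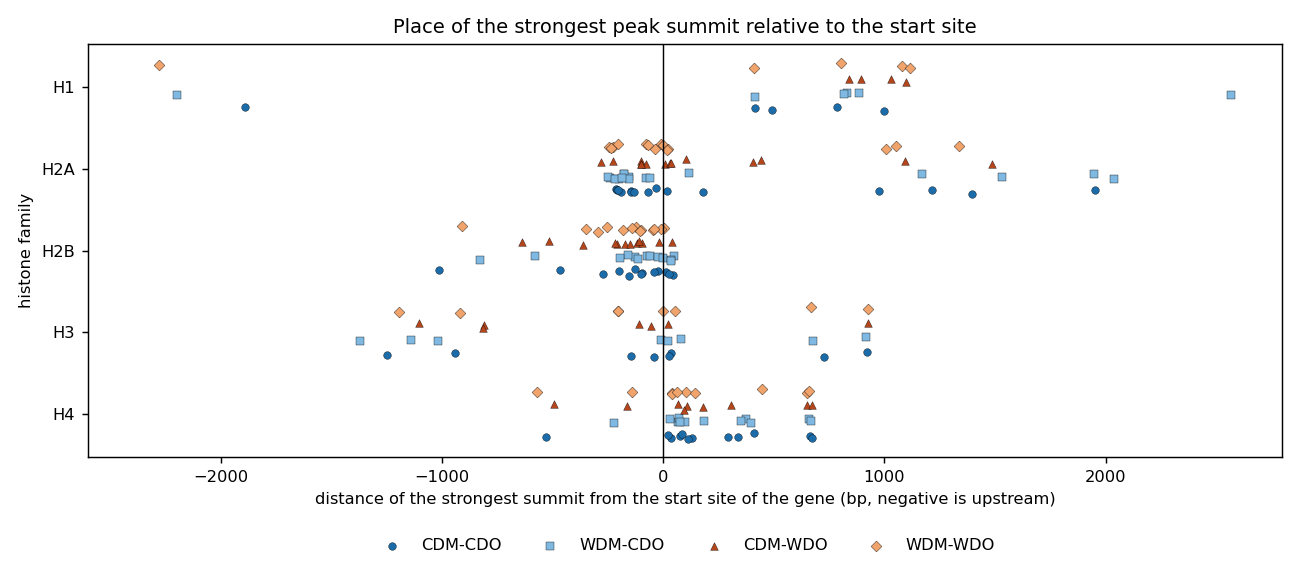
Each point is 1 histone gene in 1 peak list, placed by histone family (y axis), with 1 window per gene. The x axis is the distance in bp from the gene's start site to the summit of its strongest peak (negative is upstream). A peak was taken when any part of it lay within 1 kb of the gene, so its summit can lie farther away. Over the 4 lists, 45 of 51 H2B, 46 of 59 H2A and 33 of 43 H4 points lie within 500 bp of 0, against 14 of 31 H3 and 4 of 20 H1 points.

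In 7 genes no list had a peak. These were H2ac19, H3c14, H2bc23, H4bc24, H3c4, H2bc1 and H2ac1. H2bc1 and H2ac1 encode the testis forms of H2B and H2A, and share 1 divergent promoter. H2bc23 and H4bc24 are the pair with the same window, and H3c14 and H2ac19 have copied windows. H3c4 had no copied words.

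The remaining 9 genes had a peak in some lists. H3c15, H2bu2, H4c18 and H1f1 lacked one only in CDM-WDO. H4c12, H2ac24 and H4c2 had one only in the CDO lists. H2ac23 and H1f6, the testis form of H1, had one in WDM-CDO alone. In that list they were reached by the edge of the peak of a neighbour, H4c17 or H4c3, whose summit lay outside the window, and the nearest peak in CDM-CDO lay 1065 and 1025 bp away. H2ac24 was reached in both CDO lists by the edge of the peak of H4c18, whose summit also lay outside the window. The nearest peak to H2ac24 lay 1131 bp away in WDM-WDO and 20430 bp away in CDM-WDO. The calls at H2ac23 and H1f6, and the lack of one at H2ac24 in WDM-WDO, therefore turn on the 1 kb limit. The lack of one at H1f1 in CDM-WDO turns on it too, since the nearest peak lay 1209 bp away. A peak of its own, called in the other lists, was also not called there.

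For the diet of the mothers under CD offspring, 2 histone genes had a peak in WDM-CDO and not in CDM-CDO, where 6.45% of all genes did, and 0 had one in CDM-CDO alone, where 2.38% of all genes did. Under WD offspring, 4 had a peak in WDM-WDO only and 0 in CDM-WDO only, with 11.8% and 3.42% of all genes. For the diet of the offspring of CD mothers, 7 had a peak in CDM-CDO only (10.4%) and 0 in CDM-WDO only, with 10.8% and 3.54% of all genes. For the offspring of WD mothers, 5 had a peak in WDM-CDO only (7.46%) and 0 in WDM-WDO only, with 6.96% and 3.97% of all genes. These shares of the histone genes lie near or below those of all genes, so no comparison set the histone genes apart by presence.

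Several of these genes had weak or shared peaks. H4c12 had a summit of 48 reads in CDM-CDO and 64 in WDM-CDO. Scaled to CDM-WDO, 41.1 reads would have been there at an unchanged level, and 41 were needed for a call if the local background had also stayed, scaled by that of the genome. H4c2 had 57 and 77 reads, with 48.5 reads in CDM-WDO at an unchanged level and 43 needed. H4c18 and H2ac24 shared a peak of 54 reads in CDM-CDO. At an unchanged level it would have given 46.1 reads in CDM-WDO where 15 were needed, so a peak of that level would have been called. Of the words of their windows, 94 and 73.3% were shared with other genes, so how reads were placed here is not known. H1f1, a linker histone gene, was reached by the strong neighbouring peak at H4c1 and H3c1, and its own peak had 64, 81 and 46 reads in CDM-CDO, WDM-CDO and WDM-WDO, with no call in CDM-WDO.

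The level of openness was read from the summit pileup, the whole number of reads stacked at the strongest summit, which can be worked out from each deposited fold enrichment and −log10 p. The 67 genes gave 40 regions, of which 34 were called in all 4 lists. Over these 34, and before any scaling for depth, the pileup ran from 41 to 251 reads in CDM-CDO (median 98.5) and from 59 to 375 for WDM-CDO (133.5). It ran from 27 to 126 for CDM-WDO (49) and from 41 to 198 for WDM-WDO (81). Over all 10351 regions called in the 4 lists the medians were 60, 85, 48 and 73. The histone regions thus stood above the median of all regions in both CDO lists and close to it in both WDO lists. The median rank of the 34 among all 10351, as a percentile, was 79.4, 75.5, 50.7 and 57.6.

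**Figure D3:**
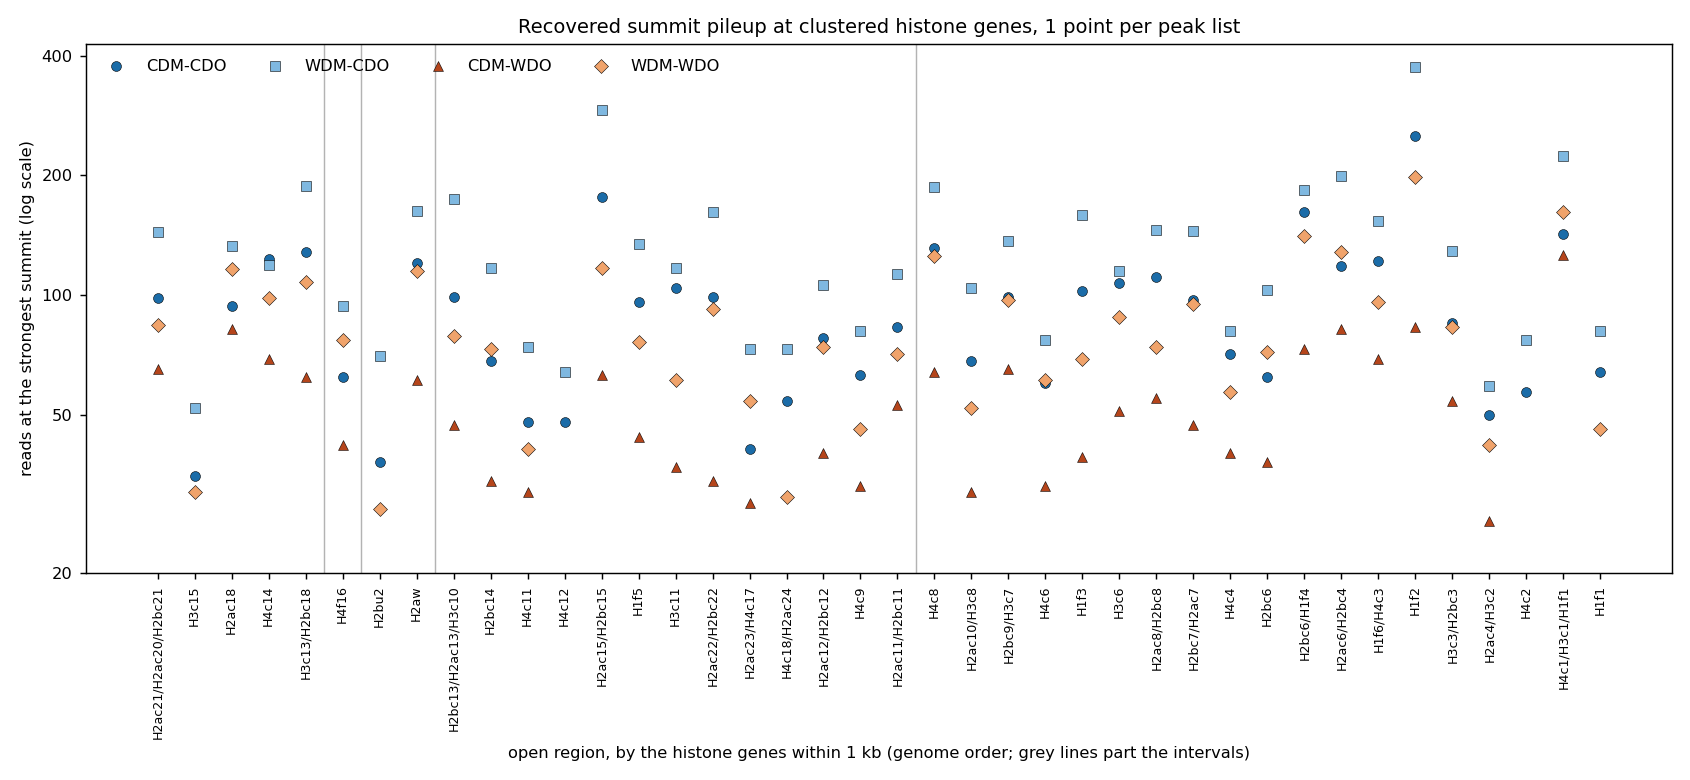
Each column is 1 of the 40 open regions at clustered histone genes, in genome order and named by the genes within 1 kb, and each point is the summit pileup in reads (y axis, log scale) in 1 peak list, not scaled for depth. Grey lines part the Hist2, Hist4, Hist3 and the 2 Hist1 intervals. WDM-CDO is mostly the highest point and CDM-WDO the lowest, with H1f2 reaching 375 reads.

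Among the H1 genes, H1f2 had 251 reads in CDM-CDO and 375 for WDM-CDO, against 83 for CDM-WDO and 198 for WDM-WDO. Its exact 95% Poisson intervals, for counting error only, were 221 to 284, 338 to 415, 66.1 to 103 and 171 to 228. These reads are not scaled for depth, so overlap of the intervals does not set the lists apart. Scaled as below, the log2 ratio of WDM-CDO to CDM-CDO at H1f2 was 0.11. H1f2 was the strongest histone region in every list but CDM-WDO. The peak (chr13:23738730-23740333) begins inside the window printed above and covers the gene. H1f3 had 102, 159, 39 and 69 reads and H1f5 96, 134, 44 and 76. H1f4 shared a region with the 5′ end of the long span of H2bc6 and had 162, 184, 73 and 141. In each of these H1 regions CDM-WDO was the lowest in reads not scaled for depth.

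For the H2A and H2B pairs, the region between H2ac15 and H2bc15 had 176, 291, 63 and 117 reads. That of H2ac22 and H2bc22 had 99, 162, 34 and 92, and that of H2ac6 and H2bc4 118, 199, 82 and 128. The region of H2bc13, H2ac13 and H3c10 had 99, 174, 47 and 79, and that of H2ac8 and H2bc8 had 111, 146, 55 and 74. H2bc14, an H2B gene with no partner in its region, had 68, 117, 34 and 73. In all 6 the highest value, in reads not scaled for depth, was in WDM-CDO and the lowest in CDM-WDO. The medians of all 10351 regions called in the 4 lists had the same order (60, 85, 48 and 73). Scaled to the median of those regions, H2ac8 with H2bc8 was highest in CDM-CDO (1.92) and lowest in WDM-WDO (1.01).

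Among H3 genes with a region of their own, H3c11 had 104, 117, 37 and 61 reads and H3c6 107, 115, 51 and 88. Among H4 genes, H4c8 had 131, 187, 64 and 125, H4c3 122, 153, 69 and 96, H4c9 63, 81, 33 and 46, and H4c6 60, 77, 33 and 61. The region shared by H4c1, H3c1 and H1f1 was flatter, at 142, 223, 126 and 162 reads, and in CDM-WDO it was the strongest of the histone regions.

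Outside Hist1, every gene is given. In Hist2, H4c14 had 123, 119, 69 and 98 reads, the shared region of H3c13 and H2bc18 had 128, 188, 62 and 108, and that of H2ac21, H2ac20 and H2bc21 had 98, 144, 65 and 84. H2ac18 had 94, 133, 82 and 116, and H3c15 had 35 and 52 in the CDO lists, no call in CDM-WDO and 32 in WDM-WDO. H2ac19 and H3c14 had no peak. In Hist3, H2aw had 120, 163, 61 and 115 reads, while H2bu2 had 38 and 70 in the CDO lists, no call in CDM-WDO and 29 in WDM-WDO. The Hist4 gene H4f16 had 62, 94, 42 and 77. CDM-WDO was the lowest list, in reads not scaled for depth, or had no call in each of these regions.

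Raw pileups rise with depth, so each region was compared between lists after subtraction of the genome background and division by the median ratio of all regions called in both lists. A region was counted as different past a scaled ratio of 1.5-fold. Read totals were not used here. The lists held 22178, 28319, 18962 and 26275 peaks with a median summit of 36, 38, 31 and 39 reads, while the genome background, the lowest level the caller tested against, was 4.84, 5.59, 5.49 and 6.08 reads. CDM-WDO was the lowest list by the first 2 measures but not by the third.

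At these genes the lists differed little by the diet of the mothers where offspring had CD. The median scaled log2 ratio of WDM-CDO to CDM-CDO was 0.04 over 40 histone regions, a ratio of 1.03, and 23 were higher and 17 lower. None was past 1.5-fold in either direction, where 3.25% of all 16709 shared regions were past it upward and 6.28% downward. Under WD offspring the median of WDM-WDO against CDM-WDO was 0.24, a ratio of 1.18, over 34 regions. Of these, 3 were over 1.5-fold higher in WDM-WDO (8.82%, with 7% of all 12230 regions) and 0 over 1.5-fold lower (8.9% of all). The 3 were H2ac22 with H2bc22 (log2 ratio 1.0), H1f2 (0.72) and H2bc14 (0.64). By the deposited fold enrichment, scaled in the same way, this median turned to -0.02, and 0 of 34 were over 1.5-fold higher (2.38% of all). The read level around the peaks was higher in WDM-WDO, with a scaled ratio of 1.21, and was lower in only 2 of the 34.

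The diet of the offspring went with lower pileups at nearly all histone regions. With CD mothers, CDM-WDO was below CDM-CDO in 32 of 34 histone regions, with a median scaled log2 ratio of -0.80, a ratio of 0.575. Over 1.5-fold lower were 23 of the 34 (67.6%), against 10.8% of all 11269 shared regions, and 0 were over 1.5-fold higher, against 12.4%. With WD mothers, WDM-WDO was below WDM-CDO in 38 of 38 histone regions, with a median of -0.51, a ratio of 0.701. Here 17 of 38 (44.7%) were over 1.5-fold lower, against 11.8% of all 16103 regions, and 0 were over 1.5-fold higher, against 16.7%. These 2 comparisons share no list, and 32 of the 34 regions called in all 4 lists were lower under WD in both (94.1%, against 28.7% of all regions). In 29 of the 34 both WDO values, scaled, lay below both CDO values (85.3%, against 22.4% of all).

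**Figure D4:**
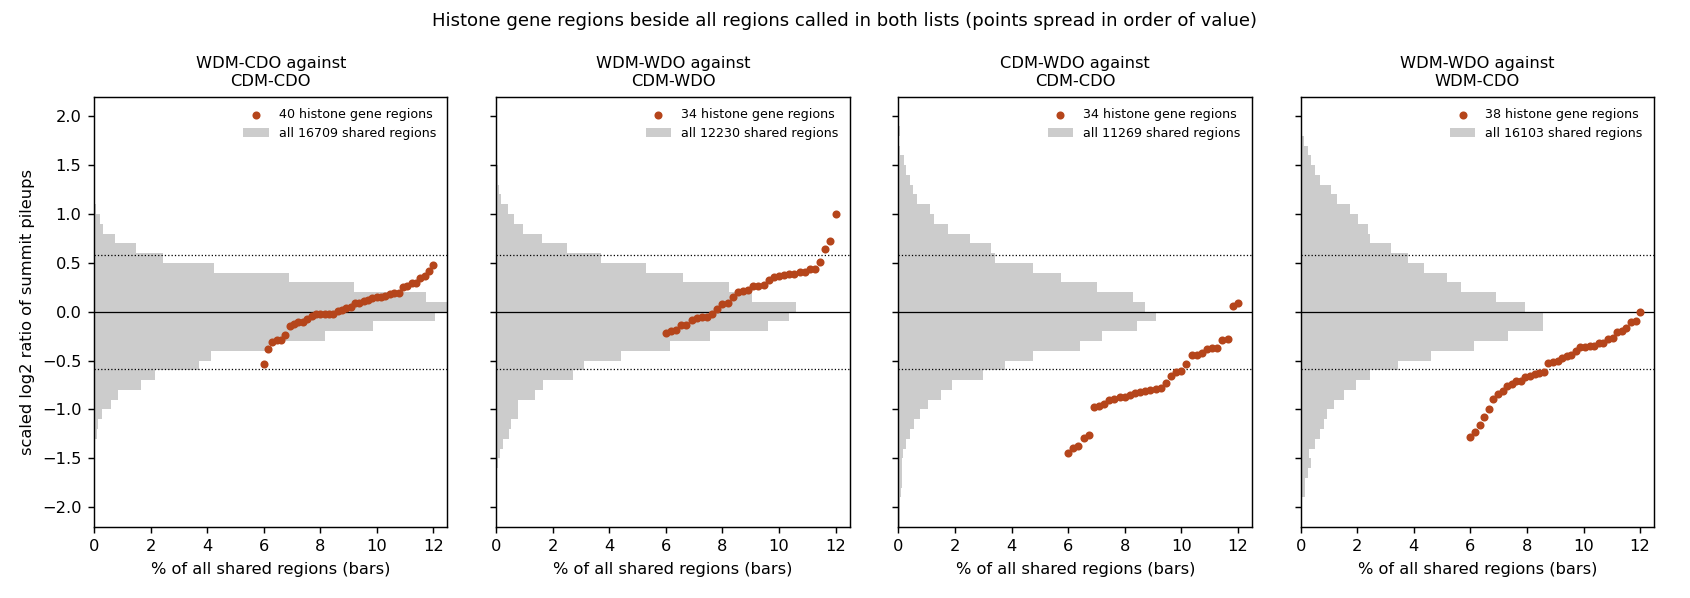
The 4 panels give the scaled log2 ratio of summit pileups (y axis) in the 4 comparisons, with grey bars for the percentage of all shared regions at each ratio (x axis) and red points for the histone regions, spread sideways in order of value. Dotted lines mark 1.5-fold. In the 2 right panels, WDO against CDO, nearly all points lie below 0, while in the left panel they lie on both sides of it.

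The same regions looked different over their local background, the read level around the peak that the peak caller tested against. In CDM-WDO against CDM-CDO the deposited fold enrichment, scaled in the same way, had a median log2 ratio of -0.15 over the 34 histone regions, and 1 of 34 was over 1.5-fold lower (4.28% of all regions). In WDM-WDO against WDM-CDO the median was -0.04, and 2 of 38 were over 1.5-fold lower (5.02% of all). The local background was itself lower: its median at histone regions was 15.5 reads in CDM-CDO and 9.69 in CDM-WDO, a scaled ratio of 0.655, and 22.3 in WDM-CDO and 14.6 in WDM-WDO, a scaled ratio of 0.674. It was over 1.5-fold lower in 18 of 34 and 18 of 38 histone regions, where 1.69% and 2.41% of all shared regions were. The local background of a histone peak can take in the peaks of neighbouring histone genes, so it is no separate measure of the chromatin around them. Why both were lower was not tested.

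**Figure D5:**
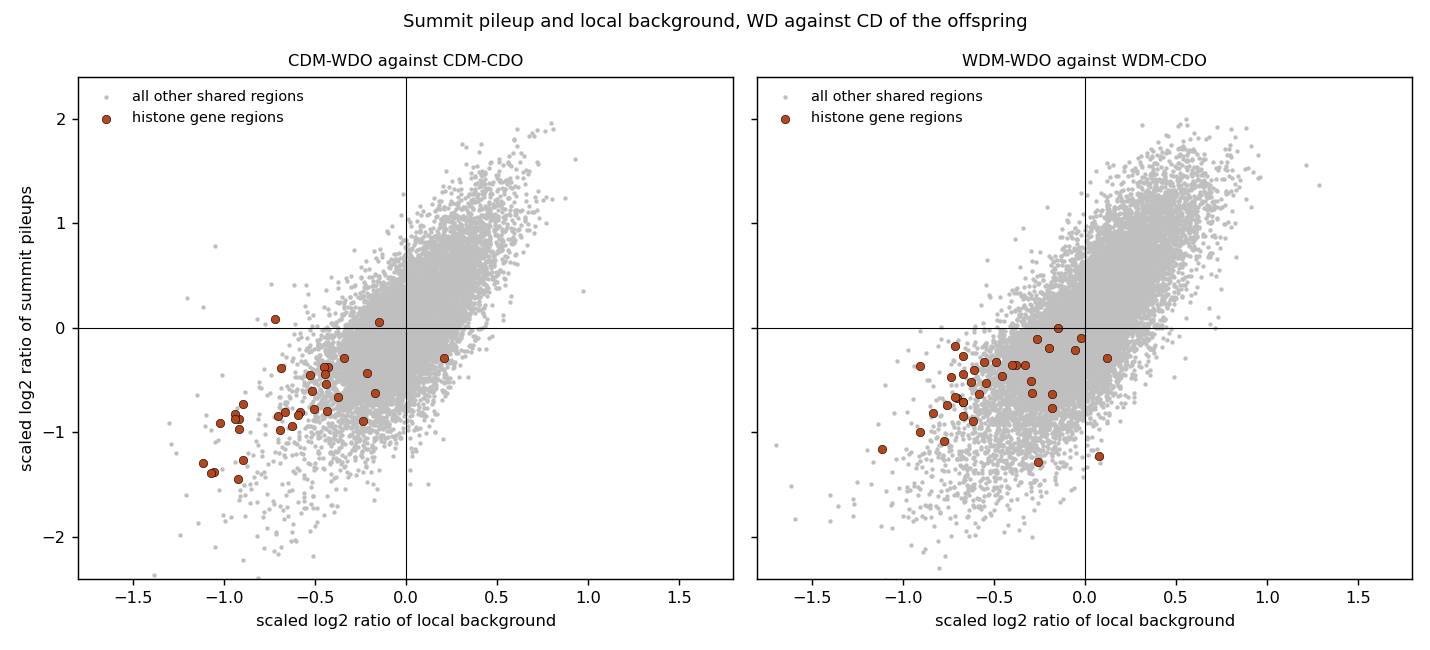
Each point is 1 region called in both lists, by the scaled log2 ratio of its local background (x axis) and of its summit pileup (y axis), for CDM-WDO against CDM-CDO (left) and WDM-WDO against WDM-CDO (right). Histone regions (red) lie mostly in the lower left, where the background and the summit were both lower in the WDO list, on the edge of the cloud of all other regions (grey).

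The lower pileup held across families. The medians for H1, H2A, H2B, H3 and H4 regions were -0.95, -0.80, -0.82, -0.85 and -0.61 in CDM-WDO against CDM-CDO. In WDM-WDO against WDM-CDO they were -0.67, -0.52, -0.52, -0.55 and -0.36. H4 was the least lowered family in both, but a region shared by several genes counts for each of their families, and the families were not tested against each other. Regions with 1 histone gene and with 2 or 3 had medians of -0.79 and -0.80 with CD mothers, and -0.53 and -0.50 with WD mothers. The first Hist1 interval had -0.87 and -0.69, the second -0.79 and -0.42. Outside Hist1 the medians were -0.49 over 6 regions and -0.47 over 8.

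With CD mothers the lowest ratios were at H2ac22 with H2bc22 (log2 ratio -1.45 and -0.66 with WD mothers), H1f2 (-1.39 and -0.74), H3c11 (-1.38 and -0.81), H2ac15 with H2bc15 (-1.30 and -1.16) and H1f3 (-1.26 and -1.08). With WD mothers alone, H2bu2 (-1.28) and the region of H4c18 and H2ac24 (-1.23) were lowest, and neither was called in CDM-WDO. The 2 regions not lower with CD mothers were H2ac18 (0.06) and the region of H4c1, H3c1 and H1f1 (0.09), which had -0.00488 and -0.27 with WD mothers. The window of H2ac18 is partly copied at H2ac19, and those of H4c18 and H2ac24 are partly copied at other histone genes. Reads of these regions may be mixed.

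Genes that work with the clustered histone genes had ratios nearer 0. The 11 replication-independent histone variants, such as H3f3a and H3f3b for H3.3 and H2az1 for H2A.Z, had a peak at 9, 10, 7 and 9. Their median log2 ratios were -0.03 and -0.14 for WDO against CDO, with CD and WD mothers in this order. Genes for histone gene transcription and mRNA processing, such as Npat, Slbp for the stem-loop binding protein and Hinfp for the H4 promoter factor, had a peak at 16, 16, 15 and 16 of 16, and medians of -0.14 and -0.08. Histone chaperones, among them Asf1a and Chaf1b, had 10, 10, 9 and 9 of 10, and medians of 0.13 and 0.02. Genes of S phase and mitosis, such as Pcna, Mcm3 and Mki67, had 21, 21, 19 and 21 of 21, and medians of 0.11 and -0.06. Past 1.5-fold lower were 1 of 8, 2 of 16, 1 of 10 and 1 of 18 regions of these lists with CD mothers, and 1 of 12, 1 of 17, 0 of 10 and 2 of 22 with WD mothers.

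Markers of other cell types also differed between the lists. Lymphocyte markers had a peak at 6, 7, 2 and 5 of 8, and the summed pileup of their strongest peaks was 463, 518, 49 and 203 reads. Cd3e and Cd79b had a peak in both CDO lists and in neither WDO list, and Cd3g and Cd4 lacked one only in CDM-WDO. Against this order, Cd79a had one only in WDM-WDO, and Il7r lacked one only in CDM-CDO. The summed values, not scaled for depth, were lower in WDO than in CDO under both mothers, as the pileups of most histone regions were. So were the sums of the histone variants, the chaperones, smooth muscle markers and the genes of S phase and mitosis (1490, 2260, 1226 and 1817 reads for the last). The part of the lymphocyte values in the histone result was not tested. Macrophage and monocyte markers had 6, 6, 4 and 10 of 10 (205, 276, 187 and 553 reads), and neutrophil markers 0, 0, 1 and 4 of 6. Smooth muscle markers had 2, 2, 1 and 1 of 5, and fibroblast markers 2, 2, 2 and 3 of 5. Endothelial markers had 6, 9, 10 and 8 of 10, and 226, 457, 381 and 352 reads. In CDM-CDO the endothelial genes Cdh5, Tek, Emcn and Cldn5 had no peak within 1 kb.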

How the data were processed

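ATAC-seq peaks of mouse aortic endothelial cells were used from 4 lists in the narrowPeak format, 1 per group of 2 samples. Per the submitters' processing notes, the tools were Bowtie2 2.4.5, MACS2 2.2.9.1, SAMtools 1.13, deepTools 3.5.4, FastQC 0.12.1 and Trim Galore 0.6.10, with the build GRCm38 (mm10). Not given in the sources used here are their settings, the pooling of samples and any shift of read ends. Each peak's fold enrichment (a ratio), its −log10 p and −log10 q and its score are the authors' values as deposited. The score was not used further. Read totals per sample were not used here.

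Summits sharing an interval were counted once, by the highest −log10 q. Peaks on chromosome Y were left out. The pileup and local background of each summit were solved from the deposited fold and −log10 p, given that MACS2 adds 1 read to both and tests against a Poisson background. A whole number fitted 100% of peaks within a relative tolerance of 0.0001. Peaks of the 4 lists were merged into 48003 regions where they overlapped by at least 1 bp. Scaled ratios, thresholds and the 1 kb window are as described with the results. Gene spans and promoter windows are RefSeq's (GRCm38.p6), and coordinates are in that build. Genes without a window were H2bc21, H4c14, H3c7, H2bc4 and H3c1. Motif shares were counted on both strands.

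The genes, lists, and tests were chosen with earlier results of these data known. Genes were named by rule: the 10 with the highest lowest pileup over the lists, those with a peak in 1 list of a comparison only, those with none, and all of Hist2, Hist3 and Hist4. The others named were chosen after their values were seen. So were the background of genes up to 1 kb and the motif AAACACA. Of the transcription and processing list, 16 genes matched, 1 of them under 2 names. The values of 1 marker gene are not reported here. The scripts were tested on simulated data. Python 3.11.15, pandas 2.3.3, numpy 2.4.6, scipy 1.17.1 and matplotlib 3.10.9 were used.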

Additional observations from a re-analysis of the deposited data

How the results depend on the processing

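No paired analysis was possible because each group has 1 peak list and no file separates its samples, and leaving out a replicate was likewise not run. Of 184 alternative values for 32 results, 142 stayed within limits (counts and medians within 1.5 times, shares inside the 95% Wilson interval), 38 moved and 4 reversed. The references of like strength and of all 4 lists, and the subset without Hist1 or without copied windows, were added after seeing the data. The numbers of genes with a peak in each list stayed within 1.5 times. With a window of 5 kb they were 65, 65, 61 and 65 of 67. With the summit inside the window they were 55, 53, 50 and 54, so that WDM-CDO was no longer the highest list.

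Counts of genes with a peak in 1 list only moved as follows. Where a peak had to overlap the gene, 0 genes were in WDM-CDO and not CDM-CDO, 7 in WDM-WDO and not CDM-WDO, and 2 in WDM-CDO and not WDM-WDO. With a window of 500 bp, 0 were in WDM-CDO and not CDM-CDO and 2 in WDM-CDO and not WDM-WDO. With 5 kb, 0 and 0 were, and 4 were in CDM-CDO and not CDM-WDO. With the summit inside the window, 1 was in WDM-CDO and not CDM-CDO and 3 the other way, 1 in CDM-WDO and not WDM-WDO, 2 in CDM-WDO and not CDM-CDO, 3 in WDM-WDO and not WDM-CDO and 2 the other way. With lists of equal length, 1 was in CDM-CDO and not WDM-CDO. Without the testis genes, 1 was in WDM-CDO and not CDM-CDO.

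With the deposited fold enrichment in place of the pileup, the medians were -0.0791 (WDM-CDO against CDM-CDO), -0.0245 (WDM-WDO against CDM-WDO), -0.1544 (CDM-CDO as the reference for CDM-WDO) and -0.0397 (WDM-CDO as the reference for WDM-WDO). The first 2 reversed. Regions over 1.5-fold lower were then 1 in the first comparison, 1 in the third, which also had 1 over 1.5-fold higher, and 2 in the last. In WDM-WDO against CDM-WDO 0 were over 1.5-fold higher. For WDM-CDO against CDM-CDO, the median was 0.0076 with gene-end regions as reference, and it reversed to -0.0224 with regions of like strength and -0.0154 with regions in all 4 lists, each of the last 2 with 1 region over 1.5-fold lower. Without Hist1 the medians were 0.0918, 0.1042 and -0.4943 in the first 3 comparisons, with 0 regions higher in the second and 3 lower in the third, and 4 lower in WDM-WDO against WDM-CDO, fewer regions being left. With the 3 other references, 20 to 22 of 34 and 13 to 14 of 38 regions stayed over 1.5-fold lower under WD offspring. The cause of the other moves was not tested.

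The share of Hist1 peaks at histone genes was 93.1% in CDM-WDO and 82.9% in WDM-WDO with a −log10 q of at least 5. That of Hist2 was 100% in WDM-CDO with the same limit, and 100% in WDM-CDO, CDM-WDO and WDM-WDO with a window of 5 kb.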

Other observations

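Regions inside the cluster intervals with no histone gene within 1 kb had median scaled log2 ratios of -0.30 over 5 regions in CDM-WDO against CDM-CDO and 0.28 over 9 in WDM-WDO against WDM-CDO. The histone regions of the same intervals had -0.80 and -0.51. In the mothers' comparisons these other regions had -0.34 over 8 regions (WDM-CDO against CDM-CDO, 3 over 1.5-fold lower) and -0.02 over 7 (WDM-WDO against CDM-WDO).

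Endothelial marker regions had medians of 0.34 over 6 regions in CDM-WDO against CDM-CDO and -0.18 over 9 in WDM-WDO against WDM-CDO. In WDM-WDO against CDM-WDO they had -0.63 over 8. Macrophage and monocyte marker regions had 0.64 over 3 and 1.26 over 4 in the 2 comparisons of the offspring diets. Lymphocyte marker regions had -0.68 over 4 in WDM-WDO against WDM-CDO, with 2 over 1.5-fold lower and 1 over 1.5-fold higher. In CDM-WDO against CDM-CDO 0 lymphocyte marker regions were called in both lists.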
